A study of Mus musculus with 39 samples.

Results

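ISRIB was compared with saline in alveolar macrophages that derive from monocytes, sorted for low Siglec F from lungs of young mice after bleomycin. The comparison used 9 of the 39 RNA-seq libraries of the series, defined by their labels: 4 libraries from mice given ISRIB and 5 from mice given saline. It was chosen with earlier results of these data known. All mice were C57BL/6J, and both groups had received bleomycin, which damages the alveolar lining and is followed by scarring, so the uninjured state is not among the 9 libraries. Per the series text, ISRIB or vehicle was injected into the peritoneum each day from day 7, and the cells were sorted on day 21. The sample labels give the young mice as 8 to 12 weeks old, whereas the series text gives 3 to 5 months. The 10 macrophage libraries from old mice, labelled as over 18 months and treated in the same way with 5 libraries per group, served for the comparison between ages. Libraries were made from 3 ng of total RNA with polyA selection. No source used here says whether each library came from a separate mouse, so the p-values measure only the spread between these libraries, which may be technical.

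ISRIB is a small molecule that binds the guanine nucleotide exchange factor eIF2B and keeps it active when its substrate eIF2 is phosphorylated. Phosphorylation of eIF2 by stress-sensing kinases lowers protein synthesis and favours translation of a few mRNAs, among them that of the transcription factor Atf4, and this programme is called the integrated stress response. After lung injury, monocytes enter the alveoli and become alveolar macrophages. These cells carry little Siglec F at first, gain it as they mature, and in fibrosis express genes for matrix remodelling and growth factors.

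The sort was checked against its markers, in counts scaled to the library total (CPM). Ptprc, the pan-leukocyte antigen CD45, stood at 934.2 to 1095 CPM in the 9 libraries, the colony-stimulating factor receptor Csf1r at 1064 to 1319 CPM and the macrophage glycoprotein Cd68 at 1045 to 1249 CPM. Siglecf itself was low, at 46.8 to 58.8 CPM with saline and 60.3 to 82.0 CPM with ISRIB. Ly6c2, which marks classical monocytes, was 0.193 to 2.20 CPM, and the eosinophil peroxidase Epx was at most 0.0623 CPM. The markers therefore fit macrophages with little Siglec F, and sequencing depth was 6069978 to 16056708 counts with saline and 6434156 to 10378206 with ISRIB.

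Among the 9 libraries, 1 stood apart from its group. ISRIB replicate 3 lay among the saline libraries on the first principal component of the young libraries, which held 20.7% of the variance: its score was -25.09, against -25.32 to -2.98 for saline and 36.98, 37.85 and 26.96 for ISRIB replicates 1, 2 and 4. For each ISRIB library, the 300 genes of smallest p between the other 3 ISRIB libraries and saline were taken, and the share of their shift that the library itself showed was measured. The median share was 83.7% for replicate 1, 81.8% for replicate 2, 73.3% for replicate 4 and 2.20% for replicate 3. By root mean square distance in log2 CPM, replicate 3 was also nearer to the saline libraries (0.581) than to its own group (0.704), and replicate 4 was about as near to either (0.656 to saline and 0.660 to ISRIB). Its mitochondrial share of counts (1.75%) and its number of detected genes (14152) lay within the range of the other 8 libraries. Whether this library was treated, labelled or sorted differently was not tested. It carries the ISRIB label and is kept in the comparison of all 4, and counts of genes and the main values are given also without it. Because it was singled out by its expression, and leaving out a library that lies close to saline widens the difference by construction, the values without it describe the other 3 libraries and are not independent evidence of an effect.

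**Figure D1:**
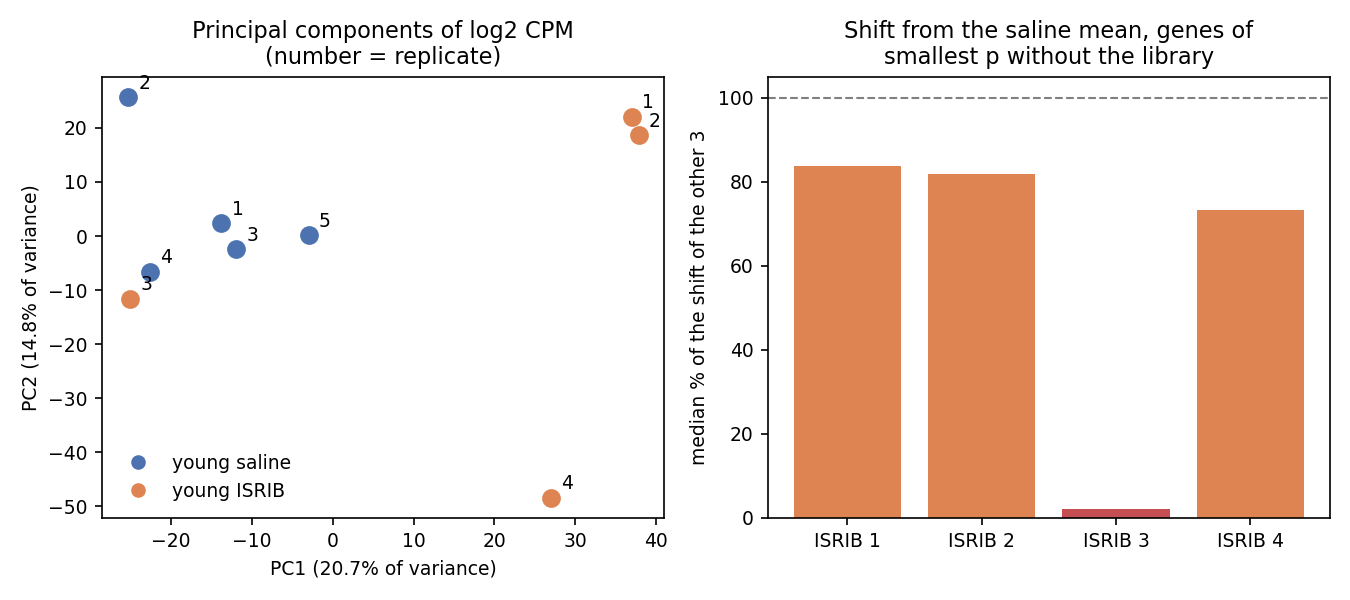
Left, the 9 young libraries on the first 2 principal components of log2 CPM, labelled by replicate number; right, the median percent of the other 3 libraries' shift from the saline mean shown by each ISRIB library, with 100% as the dashed line. ISRIB replicate 3 sits among the saline libraries on the left and shows 2.20% of the shift on the right, against 73.3% to 83.7% for the others.

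With all 4 ISRIB libraries, no gene passed an adjusted p of 0.05 in edgeR's quasi-likelihood test (0 of 12171 genes, 0%), and the smallest adjusted p was 0.0848, shared by 6 genes. An unadjusted p under 0.05 was reached by 1513 genes (12.4%), with ISRIB above saline in 842 (6.92%) and below it in 671 (5.51%). DESeq2 called 105 genes on the same libraries (0.863%) and limma-voom called 0. In 485 genes (3.98%) the 4 ISRIB and 5 saline libraries did not overlap, 283 with ISRIB higher (2.33%) and 202 with ISRIB lower (1.66%). Without replicate 3, edgeR called 304 of 12504 genes (2.43%), of which 172 rose with ISRIB (1.38%) and 132 fell (1.06%), DESeq2 called 592 (4.73%) and voom 256 (2.05%). With offsets for transcript length and GC content, added after seeing the data, 214 genes were called (1.72%), and the share of higher genes among the calls went from 56.6% to 69.6%. These calls rested on few libraries: leaving out a second library gave 18 calls without ISRIB replicate 2, 36 without ISRIB replicate 1, 255 without ISRIB replicate 4 and 73 to 322 without 1 saline library. In the 8 fits without replicate 3 and 1 further library, 9 genes were called every time: Adam19, Atp6v0d2, C77080, Dennd4c, Mcm2, Mcm5, Pip4k2a, Plpp3 and Syt11. Syt11 was named after its values were seen. Of 78 named genes called without replicate 3, the call was lost in 56 without ISRIB replicate 1, in 67 without ISRIB replicate 2, in 20 without ISRIB replicate 4 and in 11 to 41 without 1 saline library, and 18 of the 78 were lost with the offsets.

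**Figure D2:**
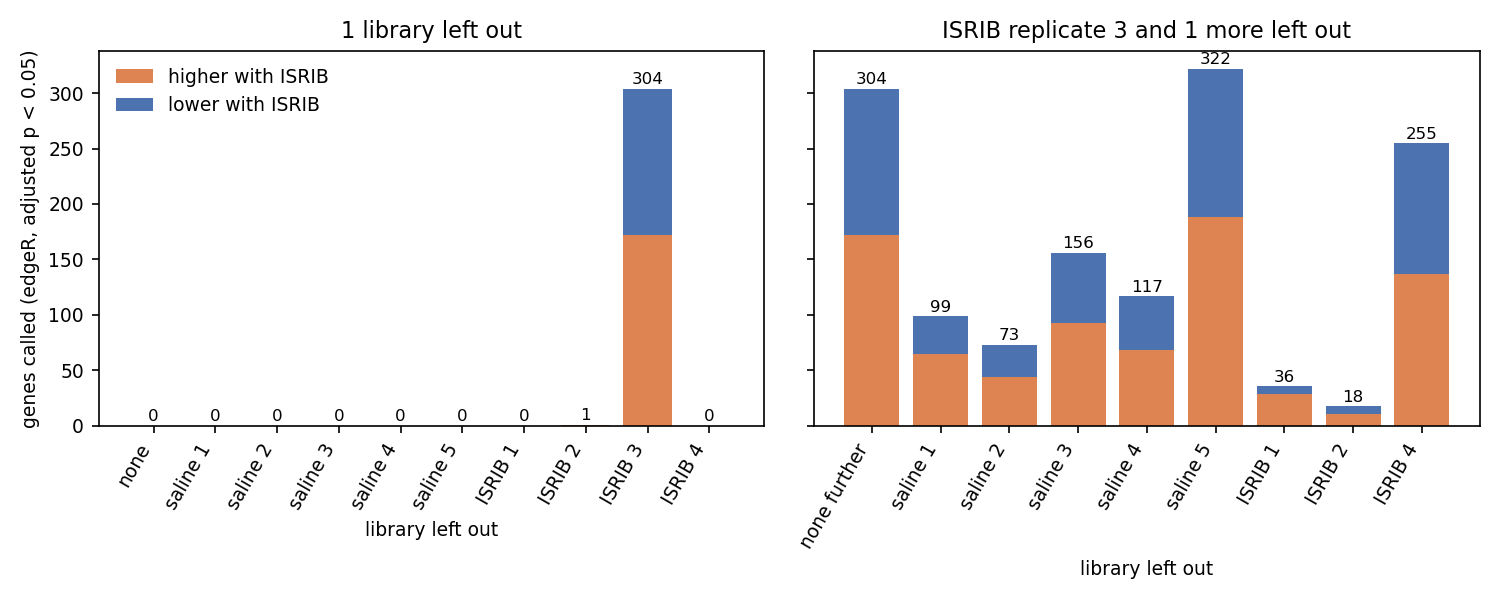
Number of genes called by edgeR (adjusted p under 0.05) when 1 young library is left out (left) and when ISRIB replicate 3 and 1 more are left out (right), split into genes higher and lower with ISRIB. Only the omission of ISRIB replicate 3 gave more than 1 call on the left (304), and on the right the count ran from 18 to 322.

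Genes were taken first by the smallest p among those whose 4 ISRIB libraries did not overlap with the 5 saline libraries, 12 in each direction. Atp6v0d2 (ENSMUSG00000028238, chr4:19876841-19922605, GRCm38), a subunit of the proton pump that acidifies lysosomes, measured 884, 807, 912, 765 and 895 CPM in saline replicates 1 to 5 and 1260.5, 1215, 1033 and 1214 CPM in ISRIB replicates 1 to 4, after TMM scaling, as in all values of single genes by library below; summed markers of other cells are scaled to the library total alone. Every ISRIB library was above every saline library, with replicate 3 the lowest of the 4. The log2 fold change was 0.47 ± 0.09 (SE) with an adjusted p of 0.0848, and without replicate 3 it rose by 0.53 ± 0.09 (adjusted p = 0.00659, edgeR). Tlr7 (ENSMUSG00000044583, chrX:167304929-167330558), an endosomal receptor for single-stranded RNA, measured 132, 123, 159, 126 and 117 CPM with saline and 195, 222, 159.6 and 197 CPM with ISRIB. The lowest ISRIB library, replicate 3, was just above the highest saline library. Its log2 fold change was 0.56 ± 0.12 (adjusted p = 0.0929), and without replicate 3 it rose by 0.64 ± 0.12 (adjusted p = 0.0103).

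Grk5, a kinase that desensitises G protein-coupled receptors, was 26.4, 29.9, 37.6, 34.1 and 38.7 CPM with saline and 54.6, 46.3, 55.4 and 50.8 CPM with ISRIB. Here replicate 3 was the highest of its group, unlike most genes in this comparison, and the log2 fold change was 0.63 ± 0.13 with all 4 (adjusted p = 0.0848) and 0.59 ± 0.14 without it. Tsc22d3, which encodes the glucocorticoid-induced leucine zipper GILZ, was 132, 77.3, 109, 97.9 and 137 CPM with saline and 183, 180.4, 204 and 268 CPM with ISRIB, again with replicate 3 above the range of saline. Its log2 fold change was 0.91 ± 0.20 (adjusted p = 0.112), and it was the 1 gene that passed the test when only the 9 young libraries were fitted (adjusted p = 0.0499). Dennd4c (0.60), an exchange factor for Rab GTPases, Pip4k2a (0.46), a phosphoinositide kinase, Mindy2 (0.43), a deubiquitinase, Casp9 (0.45), an initiator of apoptosis, Ercc6 (0.57), which acts in transcription-coupled repair, Mical2 (0.57), an actin oxidase, Atp7a (0.49), a copper pump, and Jmjd1c (0.41), of the histone demethylase family, completed the 12 higher genes, in log2 with all 4 libraries. Their adjusted p ran from 0.0848 to 0.115 in that fit, and without replicate 3 all 12 rose. With offsets for length and GC content as well, the calls on Ercc6 (adjusted p = 0.0558) and Jmjd1c (adjusted p = 0.134) were lost.

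On the lower side, Rhbdf2 (ENSMUSG00000020806, chr11:116598165-116627019) measured 139.7, 152, 138, 146 and 139.7 CPM with saline and 101, 105, 97.6 and 107 CPM with ISRIB. It encodes iRhom2, which carries the TNF-releasing protease ADAM17 to the cell surface. All 4 ISRIB libraries lay close together, with replicate 3 the lowest of them, and the log2 fold change was -0.48 ± 0.09 (adjusted p = 0.0848) with all and -0.45 ± 0.10 (adjusted p = 0.0238) without replicate 3. Bcl3, an atypical IκB protein that binds NF-κB p50 and p52, was 30.2, 36.1, 33.3, 28.7 and 40.03 CPM with saline and 14.5, 14.8, 26.6 and 18.7 CPM with ISRIB. Replicate 3 was nearest to saline and still below it, and the log2 fold change was -0.86 ± 0.19 (adjusted p = 0.112) with all 4 and -1.08 ± 0.19 (adjusted p = 0.00659) without it. The 12 lower genes further held Ndufs6 (-0.74) and Ndufb6 (-0.60) of mitochondrial complex I, the mitochondrial import chaperone Timm13 (-0.62) and the mitochondrial membrane protein Stoml2 (-0.44), in log2. Chtf18 (-1.96), part of a clamp loader of DNA replication, Spag5 (-1.46), a spindle protein, Ppp4c (-0.40), the catalytic subunit of protein phosphatase 4, Ttyh3 (-0.43), Tmem147 (-0.49) and Wbp1 (-0.59) were the others. Without replicate 3, all of the 12 but Stoml2 (adjusted p = 0.0594) fell. Of these 11 calls, 6 were lost with offsets for length and GC content: Rhbdf2 (adjusted p = 0.0541), Ttyh3 (0.0536), Ndufb6 (0.0778), Ppp4c (0.0821), Tmem147 (0.107) and Wbp1 (0.0899).

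**Figure D3:**
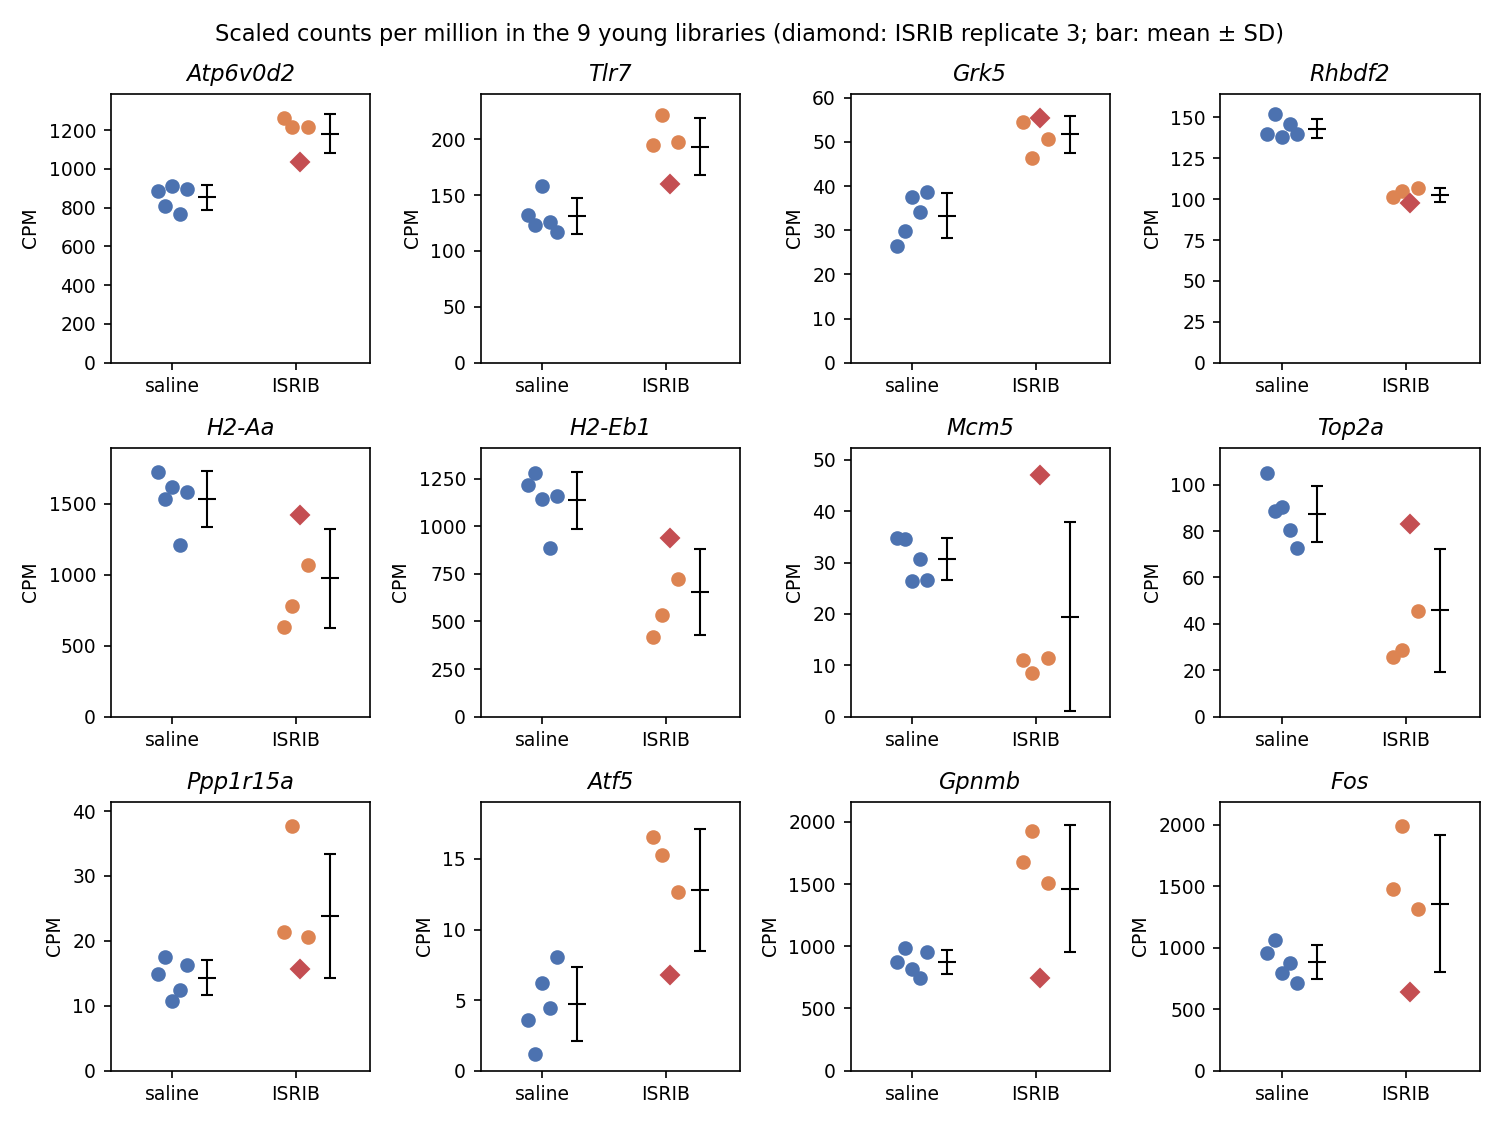
TMM-scaled CPM of 12 genes in the 5 saline and 4 ISRIB libraries, 1 point per library with the mean ± SD beside each group and ISRIB replicate 3 as a diamond. In Atp6v0d2, Tlr7, Grk5 and Rhbdf2 all 4 ISRIB libraries lie outside the saline range, whereas in the other 8 genes replicate 3 lies within it or past it on the side away from the other 3 ISRIB libraries.

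MHC class II genes, which present peptides taken up by the cell to CD4 T cells, were lower with ISRIB in replicates 1, 2 and 4. H2-Aa (ENSMUSG00000036594, chr17:34282744-34287823), the alpha chain of I-A, measured 1724, 1533, 1617, 1207 and 1584 CPM with saline and 629, 779.6, 1418 and 1066 CPM with ISRIB. Replicates 1 and 2 were lowest, replicate 4 lay under the saline range, and replicate 3 was inside it. The log2 fold change was -0.66 ± 0.20 with all 4 (adjusted p = 0.169), and without replicate 3 the gene changed by -0.90 ± 0.19 (adjusted p = 0.0221). H2-Eb1 (ENSMUSG00000060586, chr17:34305867-34316674), the beta chain of I-E, measured 1218, 1278, 1144, 887 and 1161 CPM with saline and 421, 536, 940.0 and 723 CPM with ISRIB. The order of the ISRIB libraries was the same as for H2-Aa, and the log2 fold change was -0.80 ± 0.19 (adjusted p = 0.117) with all 4 and -1.02 ± 0.19 (adjusted p = 0.00973) without replicate 3.

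In the other parts of the class II pathway, replicates 1 and 2 were again the lowest libraries. Cd74, the invariant chain that guides class II molecules through the cell, averaged 5418 ± 704 CPM (SD, n = 5) with saline and 3036 ± 673 CPM (SD, n = 3) in ISRIB replicates 1, 2 and 4, with replicate 3 at 4758 CPM. Ciita, the transactivator that class II transcription depends on, was 81.3, 62.4, 92.8, 61.1 and 77.8 CPM with saline and 30.7, 37.3, 82.6 and 49.99 CPM with ISRIB, and replicate 3 was the second highest of the 9 libraries. H2-DMa and H2-DMb1, which load peptide, had log2 fold changes of -0.42 ± 0.12 and -0.44 ± 0.12 with all 4. H2-DMb1 was the only class II gene of the list whose 4 ISRIB libraries (173, 167, 252 and 220.1 CPM) all lay under saline (254 to 292 CPM). Of 10 class II genes tested, 7 had an unadjusted p under 0.05 with all 4 libraries, all lower, and the same number fell without replicate 3: H2-Aa, H2-Ab1, H2-Eb1, H2-DMa, H2-DMb1, Cd74 and Ciita. Over all genes, 5.51% were lower at an unadjusted p under 0.05 with all 4 libraries, and 1.06% fell without replicate 3. The median log2 fold change of the 10 was -0.60 with all 4 and -0.70 without replicate 3, beside -0.0023 for all genes tested. Relative to the saline mean, the median of the list was -1.19 in ISRIB replicate 1, -0.84 in replicate 2, -0.54 in replicate 4 and -0.14 in replicate 3, and -0.22 to 0.12 in the saline libraries. All 7 calls were lost when ISRIB replicate 1 or 2 was left out as well, and those on H2-DMb1 and Cd74 also without saline replicate 2. With offsets for length and GC content 5 of the 7 were called, and Cd74 (adjusted p = 0.056) and H2-DMb1 (adjusted p = 0.0595) were not. Dendritic cells and B cells also carry class II: the summed dendritic cell markers were 29.3 to 49.9 CPM with saline and 23.7 to 40.7 with ISRIB, those of B cells 7.11 to 29.8 and 11.03 to 30.5. The median of 12 B cell markers, relative to the saline mean, was 1.304, 0.971, -0.394 and -0.265 in ISRIB replicates 1 to 4 and -0.64 to 0.06 in the saline libraries, so the libraries lowest in class II were highest in these markers. The B cell antigen Ms4a1, at 0 in 5 of the 9 libraries, was 0, 0, 0, 0 and 0.484 CPM with saline and 0.382, 4.06, 0 and 0.312 CPM with ISRIB and rose by 3.30 ± 0.89 in log2 without replicate 3 (adjusted p = 0.0467), a call kept in 2 of the 8 further omissions and lost with the offsets (adjusted p = 0.0529). The part of these cells in the class II result was not tested. In bulk samples, fewer cells of a type and less RNA per cell cannot be told apart.

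The promoters of 2 class II genes are shown because the genes fell together without replicate 3 and their shared regulation by the X and Y boxes is known. The windows are the 250 bases before the transcription start in RefSeq on GRCm38.p6, 5′ to 3′ on the gene's strand: H2-Aa chr17:34287824-34288073, minus strand, and H2-Eb1 chr17:34305617-34305866, plus strand. Capitals mark matches on either strand to 2 motifs, CCAAT (or ATTGG on the other strand, the core of the Y box) and the cyclic AMP response element TGACGTCA. The motifs do not overlap here.
H2-Aa: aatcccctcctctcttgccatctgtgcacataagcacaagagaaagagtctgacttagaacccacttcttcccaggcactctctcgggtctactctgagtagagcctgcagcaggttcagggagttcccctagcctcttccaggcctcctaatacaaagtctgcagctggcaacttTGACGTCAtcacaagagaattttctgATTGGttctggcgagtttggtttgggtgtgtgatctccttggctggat
H2-Eb1: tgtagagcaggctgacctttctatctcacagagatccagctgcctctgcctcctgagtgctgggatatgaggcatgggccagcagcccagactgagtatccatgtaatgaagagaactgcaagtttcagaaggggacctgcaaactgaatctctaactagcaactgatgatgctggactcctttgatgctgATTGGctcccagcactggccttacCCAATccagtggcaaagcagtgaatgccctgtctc
In H2-Aa the response element began 74 bases before the start and ATTGG 48 bases before it. H2-Eb1 held ATTGG 59 bases and CCAAT 35 bases before the start and no exact TGACGTCA. Of all 27025 promoter windows of 300 bases, 37.9% held CCAAT and 1.86% the response element on either strand, and of the 9344 of genes tested 39% and 3.3%. A match is a description of the letters and no evidence of a bound factor.

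In the median of both the DNA replication and the mitosis genes, ISRIB replicates 1, 2 and 4 lay below every saline library and replicate 3 above every one. Mcm5 (ENSMUSG00000005410, chr8:75109569-75128439), a subunit of the replicative helicase, measured 34.8, 34.7, 26.5, 30.7 and 26.7 CPM with saline and 10.99, 8.58, 47.1 and 11.4 CPM with ISRIB. Replicates 1, 2 and 4 lay under every saline library, while replicate 3 was the highest of all 9. The log2 fold change was therefore -0.67 ± 0.34 (adjusted p = 0.425) with all 4 and -1.57 ± 0.24 (adjusted p = 0.00293) without replicate 3. Mcm2, of the same helicase, was 32.1, 30.3, 36.9, 41.4 and 30.2 CPM with saline and 13.4, 15.4, 41.2 and 10.9 CPM with ISRIB, with replicate 3 just under the highest saline library, and fell by 1.36 on the log2 scale without replicate 3 (adjusted p = 0.00335). Both kept their call in all 8 further omissions. Top2a (ENSMUSG00000020914, chr11:98992943-99024189), the topoisomerase that untangles chromosomes before division, measured 105, 88.8, 90.4, 80.5 and 72.8 CPM with saline and 25.7, 28.6, 83.2 and 45.6 CPM with ISRIB. Its log2 fold change was -0.95 ± 0.30 (adjusted p = 0.187) with all 4 and -1.40 ± 0.28 (adjusted p = 0.0158) without replicate 3, which lay inside the saline range. The proliferation marker Mki67 was 142, 130.0, 129, 137 and 125 CPM with saline and 42.6, 53.3, 168 and 105 CPM with ISRIB, and did not pass the test without replicate 3 either (log2 -1.0 ± 0.29, adjusted p = 0.0628).

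Ect2, an activator of the contractile ring, was a mitotic gene in which replicate 3 also lay under saline, at 10.4 CPM against 11.7 to 14.1 CPM, and replicates 1, 2 and 4 were at 3.63, 2.90 and 3.12 CPM. It fell by 1.95 on the log2 scale without replicate 3 (adjusted p = 0.0111). Chtf18 was 10.8, 6.55, 3.42, 4.57 and 4.24 CPM with saline and 1.34, 0.928, 3.03 and 0.781 CPM with ISRIB, so that no library overlapped, though saline itself spread widely. By size, the falls without replicate 3 included those of Bard1 (-2.68 in log2), Ercc6l (-2.66), Neil3 (-2.58), Chtf18 (-2.49), Cdkn3 (-2.41), E2f8 (-2.36) and Pclaf (-2.33), all at low levels. Pclaf, a partner of the sliding clamp PCNA, was 22.04 to 37.4 CPM with saline, 5.26, 3.94 and 8.90 CPM in replicates 1, 2 and 4 and 36.6 CPM in replicate 3.

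Over the lists, 11 of 30 DNA replication genes and 13 of 30 mitosis genes had an unadjusted p under 0.05 with all 4 libraries, all lower, with median log2 fold changes of -0.53 and -0.68. Without replicate 3, 14 of 30 in each list fell and none rose, with medians of -0.97 and -1.27. Over all genes, 5.51% were lower at an unadjusted p under 0.05 with all 4 libraries, and 1.06% fell without replicate 3. Relative to the saline mean, the median of the mitosis list was -1.41 in ISRIB replicate 1, -1.55 in replicate 2, -0.82 in replicate 4 and 0.21 in replicate 3, against -0.11 to 0.15 in the saline libraries. The DNA replication list stood at -1.14, -0.88 and -0.67 in replicates 1, 2 and 4 and at 0.37 in replicate 3. With offsets for transcript length and GC content, 9 DNA replication genes and 10 mitosis genes fell without replicate 3. When ISRIB replicate 2 was left out as well, all 14 mitosis calls and 11 of the 14 DNA replication calls were lost, and when ISRIB replicate 1 was, 13 and 12 were. The calls on Ccnb1 and Cenpe were lost in each of the 8 further omissions.

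Promoters of 3 of these genes are shown because CCAAT boxes are frequent in genes of the cell division cycle, where the factor NF-Y binds them. The windows are again the 250 bases before the start in RefSeq on GRCm38.p6: Top2a chr11:99024190-99024439, Cdk1 chr10:69352913-69353162 and Chtf18 chr17:25727416-25727665, all on the minus strand. Capitals mark CCAAT or ATTGG.
Top2a: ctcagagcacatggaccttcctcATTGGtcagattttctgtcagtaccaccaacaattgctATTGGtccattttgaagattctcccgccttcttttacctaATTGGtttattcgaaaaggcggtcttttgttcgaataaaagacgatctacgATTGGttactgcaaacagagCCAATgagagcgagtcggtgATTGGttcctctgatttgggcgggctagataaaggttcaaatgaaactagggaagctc
Cdk1: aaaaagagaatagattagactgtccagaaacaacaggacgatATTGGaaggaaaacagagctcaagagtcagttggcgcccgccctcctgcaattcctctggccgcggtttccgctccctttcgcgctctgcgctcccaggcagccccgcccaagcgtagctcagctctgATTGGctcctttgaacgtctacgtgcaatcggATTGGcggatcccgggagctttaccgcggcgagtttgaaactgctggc
Chtf18: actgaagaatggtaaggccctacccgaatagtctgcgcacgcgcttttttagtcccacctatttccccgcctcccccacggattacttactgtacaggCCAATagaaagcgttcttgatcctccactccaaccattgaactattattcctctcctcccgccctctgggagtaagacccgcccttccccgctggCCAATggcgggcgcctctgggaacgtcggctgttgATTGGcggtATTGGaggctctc
Top2a held 6 matches, Chtf18 4 and Cdk1 3. In the 300-base windows, which run 50 bases past the start, 20 of the 26 mitosis genes with a window (76.9%) and 16 of the 25 DNA replication genes (64.0%) held CCAAT on either strand, beside 37.9% of all 27025 and 39% of the 9344 of genes tested. The E2F site TTTCGCGC, searched on both strands, was in 5 of the 25 DNA replication windows in 0.318% of all and in 0.653% of those of genes tested. These counts describe the lists and were given no test.

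**Figure D4:**
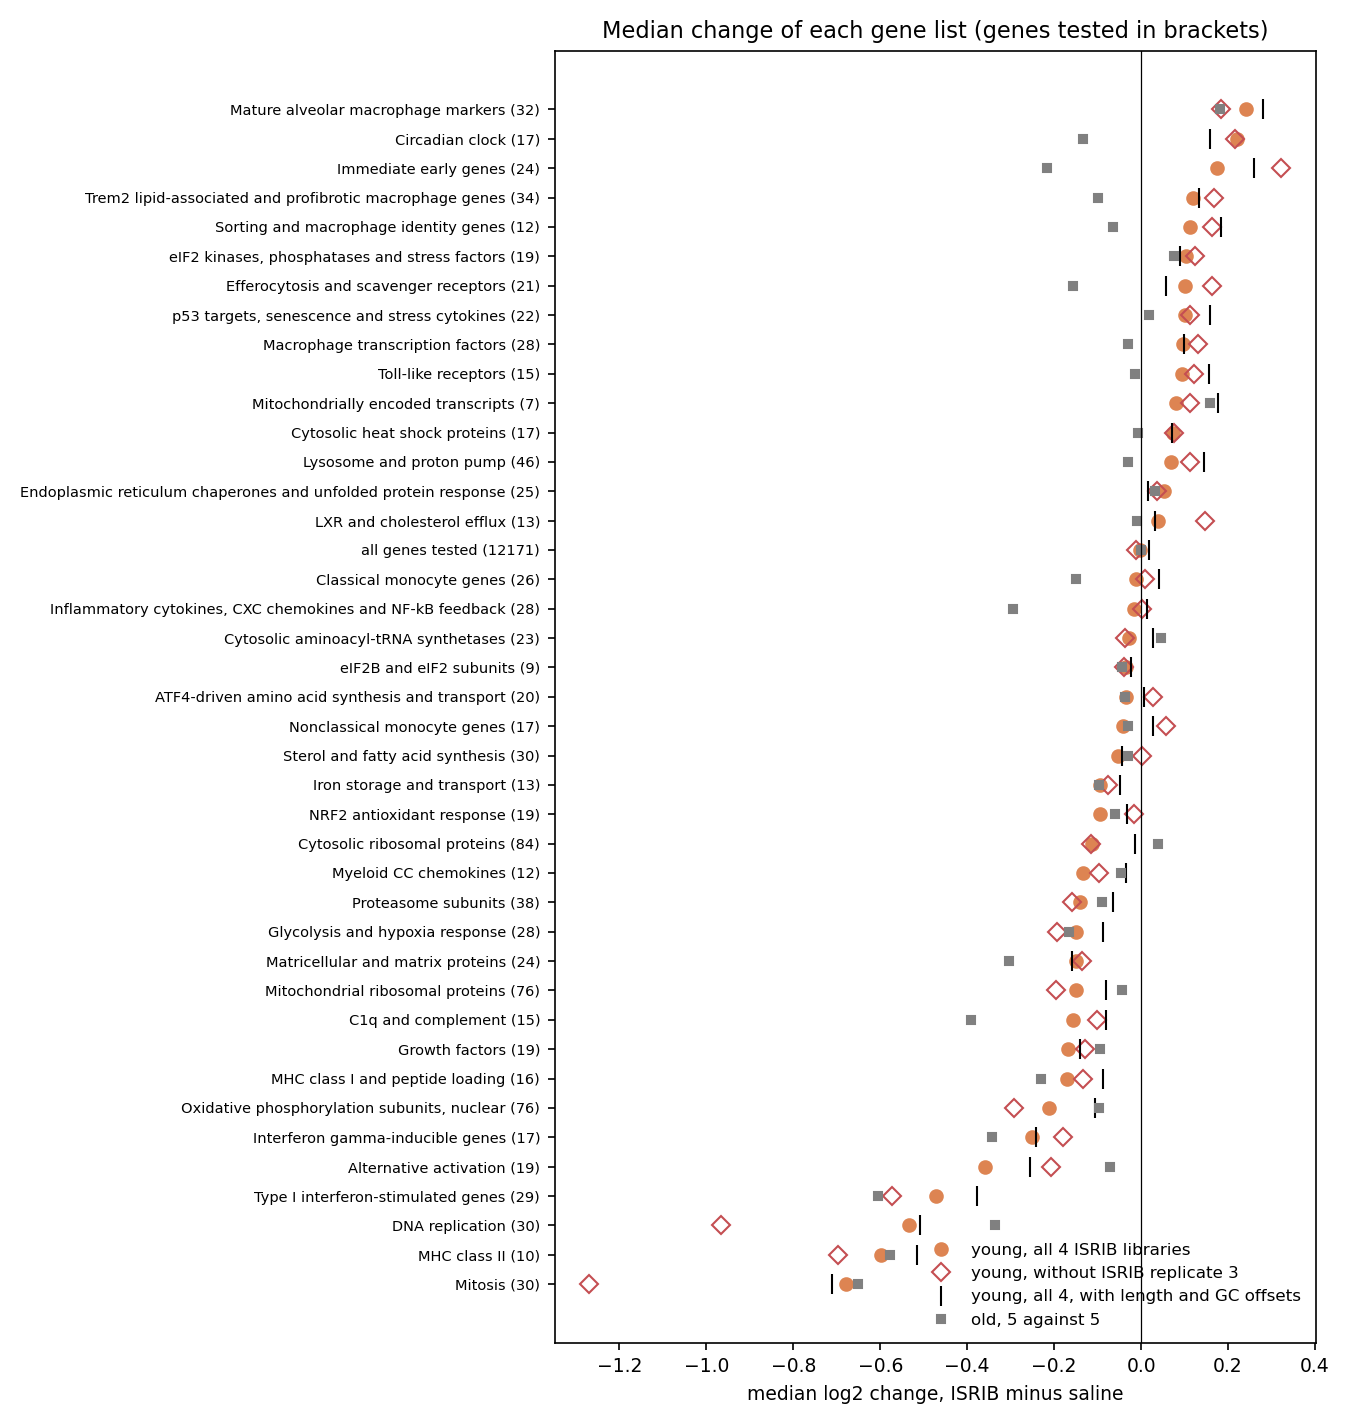
Median log2 fold change (ISRIB minus saline) of each gene list, with the number of genes tested in brackets: young with all 4 libraries (circles), without replicate 3 (diamonds), with offsets for length and GC (ticks), and old (squares). Mitosis (-0.68), MHC class II (-0.60) and DNA replication (-0.53) lie at the left for young with all 4 libraries, and mature alveolar macrophage markers (0.24) at the right.

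Nuclear genes of oxidative phosphorylation were lower by small amounts in many members. Of 76 tested, 72 had a log2 fold change under 0 with all 4 libraries, 24 had an unadjusted p under 0.05, all lower, and the median was -0.21. Ndufs6, an accessory subunit of complex I, measured 37.2, 50.3, 32.97, 37.4 and 34.8 CPM with saline and 18.8, 18.8, 28.9 and 26.2 CPM with ISRIB, without overlap, with a log2 fold change of -0.74 ± 0.15 (adjusted p = 0.0929) and of -0.86 ± 0.16 without replicate 3 (adjusted p = 0.0108). Atp5g3, a subunit c gene of ATP synthase, was 212, 249.4, 204, 212 and 174 CPM with saline and 149, 139, 188 and 158 CPM with ISRIB, where replicate 3 was within the saline range. Without replicate 3, 7 of the 76 fell and none rose: Atp5g3, Atp5j2, Cox5b, Cox6a1, Ndufb6, Ndufs6 and Ndufs8, with a median of -0.29 for the list. Of all genes, 1.06% fell in that fit. All 7 calls were lost when ISRIB replicate 1 or 2 was left out as well. The 7 mitochondrially encoded transcripts tested had all a log2 fold change above 0, with a median of 0.08. Of 38 proteasome subunits, 9 had an unadjusted p under 0.05, all lower (median -0.14), and Psmb2 and Psmd14 fell without replicate 3. Both proteasome calls were lost when ISRIB replicate 1 or 2 was left out as well, and with offsets for length and GC content (adjusted p = 0.0656 and 0.089). Of 84 cytosolic ribosomal protein genes 7 had an unadjusted p under 0.05, all lower (median -0.11), and of 76 mitochondrial ribosomal protein genes 6 (median -0.15). Over all genes tested 5.51% were lower at this threshold, and among the 2423 with the shortest transcripts 214 were. The ribosomal counts lie near these shares.

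Oxidative phosphorylation genes have short transcripts, with a median of 1088 bases, and the log2 fold change over all genes moved with transcript length. With the genes split into 5 equal classes by transcript length, the median of the shortest class, as a log2 fold change, was -0.10 with all 4 ISRIB libraries, and 57 genes were higher and 214 lower at an unadjusted p under 0.05. In the longest class the median was 0.10, with 385 higher and 75 lower. Relative to the saline mean, the shortest class stood at -0.112, -0.119, -0.026 and -0.090 in ISRIB replicates 1 to 4 and at -0.048 to 0.101 in the saline libraries. With offsets for length and GC content, where 1391 of 12115 genes had an unadjusted p under 0.05 (11.5%, 7.32% higher and 4.16% lower), the median of the oxidative phosphorylation list was -0.11 with 9 lower and 1 higher at an unadjusted p under 0.05, and without replicate 3, Atp5g3 and Ndufs6 of the list fell and Cox7a2l rose. The offsets changed the cytosolic ribosomal median to -0.01 and that of the proteasome to -0.07. The part of RNA quality or library preparation in this shift was not tested.

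**Figure D5:**
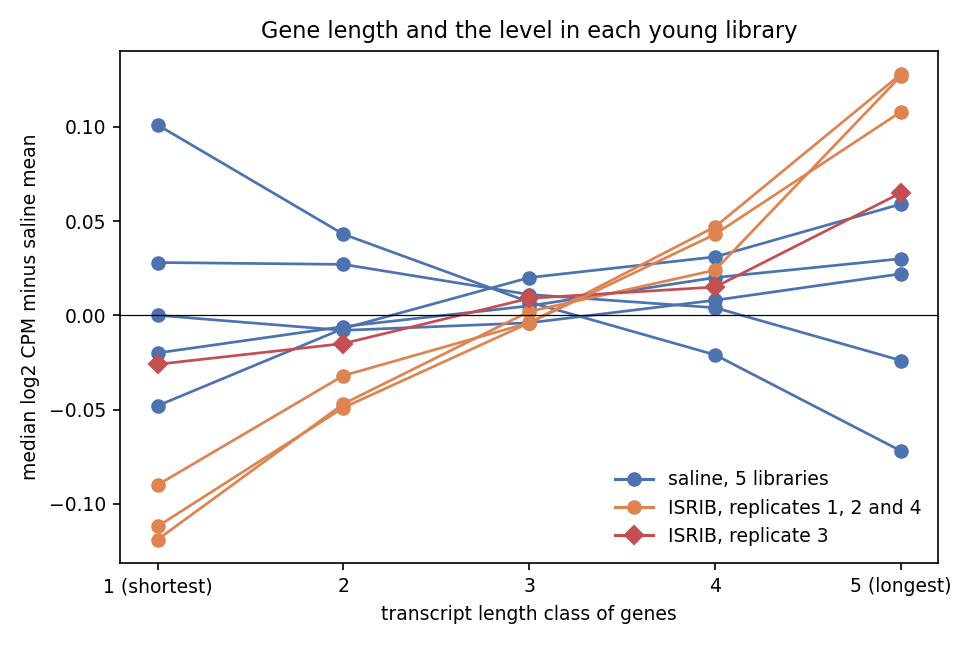
Median log2 CPM relative to the saline mean in 5 equal classes of genes by transcript length, 1 line per young library (saline, ISRIB replicates 1, 2 and 4, and replicate 3 as diamonds). The longest class stood at 0.128, 0.127, 0.065 and 0.108 in ISRIB replicates 1 to 4 and at -0.072 to 0.059 in the saline libraries.

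The pathway that ISRIB acts on was described from its factors to its targets. Of the 9 subunits of eIF2B and eIF2, 0 had an unadjusted p under 0.05, and their median log2 fold change was -0.04. Among eIF2 kinases, phosphatases and stress factors, 5 of 19 had an unadjusted p under 0.05, all higher, beside 6.92% of all genes tested. Ppp1r15a (ENSMUSG00000040435, chr7:45522916-45526268), which encodes GADD34, the stress-induced subunit that dephosphorylates eIF2, measured 14.9, 17.5, 10.7, 12.4 and 16.2 CPM with saline and 21.3, 37.7, 15.7 and 20.6 CPM with ISRIB. Replicate 2 was far above the rest, replicates 1 and 4 were above saline, and replicate 3 was inside its range. The log2 fold change was 0.73 ± 0.20 (adjusted p = 0.135) with all 4, and without replicate 3 it rose by 0.88 ± 0.19 (adjusted p = 0.0222), a call lost when ISRIB replicate 2 was left out too. Atf5, a transcription factor whose translation depends on eIF2 phosphorylation, was 3.61, 1.16, 6.24, 4.43 and 8.05 CPM with saline and 16.5, 15.3, 6.81 and 12.7 CPM with ISRIB. It rose by 1.61 ± 0.36 in log2 without replicate 3 (adjusted p = 0.0244), a call kept in 4 of the 8 further omissions. Atf4 mRNA was 111, 91.00, 107, 82.4 and 105 CPM with saline and 129.5, 131, 80.3 and 117 CPM with ISRIB, with a log2 fold change of 0.21 ± 0.12 (adjusted p = 0.48). Replicate 3 was the lowest of all 9 libraries. Without it the value was 0.35 ± 0.11 (adjusted p = 0.0777), and with offsets for length and GC content as well 0.45 (adjusted p = 0.0232), past the threshold. Because Atf4 is controlled mainly in translation, its mRNA level does not measure its protein.

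Of 20 Atf4-driven genes for amino acid synthesis and transport, 1 was higher and 1 lower at an unadjusted p under 0.05 (median -0.04), and 0 were called without replicate 3 (median 0.03). By library, relative to the saline mean, the median of the list was -0.158 and -0.287 in ISRIB replicates 1 and 2, under every saline library (-0.077 to 0.133), and 0.125 in replicate 3 and -0.030 in replicate 4. Slc38a2, an amino acid transporter, was 103, 92.4, 103, 96.1 and 121 CPM with saline and 146, 124, 114 and 132 CPM with ISRIB (log2 0.32 ± 0.14, adjusted p = 0.346, and 0.38 ± 0.15, adjusted p = 0.196, without replicate 3). Psat1, of serine synthesis, was 13.3 to 19.5 CPM with saline, 7.74, 9.39 and 9.69 CPM in replicates 1, 2 and 4 and 21.5 CPM in replicate 3 (log2 -0.55 ± 0.30 with all 4, adjusted p = 0.454, and -0.98 ± 0.29, adjusted p = 0.0709, without replicate 3). Of 23 genes in the aminoacyl-tRNA synthetase list 4 had an unadjusted p under 0.05, all lower, with a median of -0.03; Hars, which charges histidine tRNA, was 52.02 to 58.9 CPM with saline and 43.6, 36.6, 37.7 and 47.2 CPM with ISRIB, without overlap (log2 -0.44 ± 0.12, adjusted p = 0.128, and -0.40 ± 0.13, adjusted p = 0.0883, without replicate 3). Of 25 genes for endoplasmic reticulum chaperones and the unfolded protein response, 2 were higher at an unadjusted p under 0.05 and the median was 0.05. Over all genes tested 6.92% were higher and 5.51% lower at this threshold. With the offsets for length and GC content, 2 of the 23 synthetase genes were lower, beside 4.16% of all genes. Their median was then 0.03.

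The promoter of Ppp1r15a is shown because a cyclic AMP response element near the start of stress genes can be bound by ATF and CREB factors. The window is chr7:45526269-45526518 on the minus strand, 250 bases before the start in RefSeq on GRCm38.p6, with TGACGTCA in capitals, beginning 12 bases before the start.
Ppp1r15a: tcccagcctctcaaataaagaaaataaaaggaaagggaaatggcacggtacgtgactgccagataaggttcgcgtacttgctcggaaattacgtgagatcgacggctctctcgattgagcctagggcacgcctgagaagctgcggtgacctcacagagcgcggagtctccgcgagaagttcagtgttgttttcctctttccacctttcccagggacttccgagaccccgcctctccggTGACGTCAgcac
The element was present in 1.86% of all promoter windows and in 3.3% of those of genes tested, as given for H2-Aa above.

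Immediate early genes, transcribed within minutes of stimulation and also known to be induced when tissue is dissociated into cells, were higher in some ISRIB libraries. Fos measured 960.3, 1062, 793, 877 and 712 CPM with saline and 1477, 1992, 642 and 1316 CPM with ISRIB, where replicates 1, 2 and 4 were above saline and replicate 3 was below it. It rose by 0.86 ± 0.18 in log2 without replicate 3 (adjusted p = 0.0191). Egr1, a zinc finger factor, was 59.7, 82.8, 57.2, 48.1 and 38.6 CPM with saline and 197, 376, 20.7 and 86.5 CPM with ISRIB, with replicate 2 the highest and replicate 3 the lowest of all. Dusp1, a phosphatase that switches off MAP kinases, was 515, 429, 374, 327 and 326 CPM with saline and 689.8, 1123, 348 and 879 CPM with ISRIB. Of 24 genes, 7 had an unadjusted p under 0.05 with all 4, all higher (median 0.17), and without replicate 3 Fos, Egr1, Atf3, Dusp1, Klf2, Klf6 and Rhob rose and none fell (median 0.32). Over all genes, 6.92% were higher at an unadjusted p under 0.05 with all 4 libraries, and 1.38% rose without replicate 3. Relative to saline, the median of the list was 0.39, 0.81, -0.44 and 0.18 in ISRIB replicates 1 to 4, and -0.25 to 0.27 in the saline libraries. All 7 calls were lost when ISRIB replicate 2 was left out as well, those on Fos, Atf3, Klf2 and Rhob also without ISRIB replicate 1, and Atf3 and Klf2 kept theirs in 1 of the 8 further omissions. The chemokine Cxcl1 was 6.07, 2.31, 1.18, 2.57 and 2.85 CPM with saline and 8.31, 13.9, 0.151 and 17.96 CPM with ISRIB, and its rise of 2.18 ± 0.59 without replicate 3 (adjusted p = 0.0476) was lost in each of the 8 further omissions. The part of cell dissociation in these values was not tested.

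Of 32 markers of mature alveolar macrophages, 19 had a log2 fold change above 0 with all 4 ISRIB libraries. Siglecf, whose level rises as the cells mature and which was used in the sort, measured 49.5, 49.7, 50.9, 57.8 and 45.5 CPM with saline and 81.3, 80.1, 58.7 and 71.4 CPM with ISRIB, with no overlap. Its log2 fold change was 0.53 ± 0.18 (adjusted p = 0.209) with all 4 and 0.62 ± 0.19 (adjusted p = 0.0733) without replicate 3. Itgax, the integrin CD11c, was 1798, 1768, 1811, 1631 and 1826 CPM with saline and 2189, 2412, 1827 and 2169.8 CPM with ISRIB, where replicate 3 was level with the highest saline library. It rose by 0.35 ± 0.09 in log2 without replicate 3 (adjusted p = 0.0367). Of the 32 markers 9 had an unadjusted p under 0.05, all higher, and the median log2 fold change was 0.24, and 0.18 without replicate 3. Among all genes tested, 6.92% were higher at that threshold with all 4 libraries. Without replicate 3 Itgax, Atp6v0d2 and Bhlhe41 rose and Car4 fell, beside 1.38% and 1.06% of all genes. Atp6v0d2 kept its call in all 8 further omissions, Car4 in 2, Itgax in 1 and Bhlhe41 in none, and Car4 and Bhlhe41 lost it with the offsets (adjusted p = 0.0582 and 0.133). Car4, a membrane carbonic anhydrase of alveolar macrophages and of lung capillaries, was 355, 327, 275, 365 and 305 CPM with saline and 97.5, 82.7, 440.3 and 170.0 CPM with ISRIB, so replicate 3 was the highest and the other 3 ISRIB libraries the lowest of all. Pparg, the factor that directs alveolar macrophage identity, was 102, 114, 87.6, 91.2 and 92.5 CPM with saline and 143, 111, 127 and 119.7 CPM with ISRIB (log2 0.36 ± 0.11, adjusted p = 0.182, and 0.35 ± 0.12, adjusted p = 0.127, without replicate 3). The efferocytosis receptor Mertk was 348, 324, 371, 353 and 438 CPM with saline and 541, 523, 455 and 512 CPM with ISRIB, with all 4 above saline, and rose by 0.52 ± 0.12 in log2 without replicate 3 (adjusted p = 0.0222), a call kept in 4 of the 8 further omissions.

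Of 46 lysosome genes 7 were higher and 1 lower at an unadjusted p under 0.05 (median 0.07), 12 and 1 with the offsets for length and GC, and Npc1, which exports cholesterol from lysosomes, and Atp6v0d2 rose without replicate 3. The call on Npc1 was kept in 2 of the 8 further omissions and lost with the offsets (adjusted p = 0.0529). Of 15 genes of Toll-like receptor signalling, 5 were higher and 1 lower (median 0.09), and Tlr7, Tlr8 and Tlr13 rose without replicate 3. Among all genes tested, 6.92% were higher and 5.51% lower at that threshold, and 7.32% and 4.16% with the offsets. Without replicate 3, 1.38% of all genes rose. Tlr8 was 207, 172, 177, 209 and 195 CPM with saline and 232, 262, 211 and 273 CPM with ISRIB, and Tlr13, a receptor for bacterial ribosomal RNA, was 155, 146, 149, 159 and 129 and 190.0, 222, 165 and 210.0 CPM. In both, every ISRIB library was above saline and replicate 3 was the nearest to it. The call on Tlr13 was lost in each of the 8 further omissions, that on Tlr8 in 3 of them. Gpnmb, a glycoprotein of lipid-laden and lysosome-rich macrophages, measured 873, 989, 818, 749 and 951 CPM with saline and 1677, 1927, 741 and 1510.5 CPM with ISRIB, with replicate 3 below all saline libraries. Without replicate 3 it rose by 0.96 ± 0.17 in log2 (adjusted p = 0.00659), a call lost when ISRIB replicate 2 was left out as well. Cd36, a scavenger receptor that takes up fatty acids and oxidised lipoproteins, was 192, 203, 175, 227 and 194 CPM with saline and 341, 414, 139 and 280.4 CPM with ISRIB. It rose by 0.80 ± 0.17 without replicate 3 (adjusted p = 0.0222), a call kept in 5 of the 8 further omissions.

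Spp1, Fn1, Arg1 and Trem2, often named for profibrotic macrophages, did not pass the test with or without replicate 3. Spp1, which encodes the matricellular protein osteopontin, measured 12512, 11558, 11591, 13015 and 11760.0 CPM with saline and 8319, 11246, 11889 and 13541 CPM with ISRIB. The groups overlapped, the log2 fold change was -0.10 ± 0.23 (adjusted p = 0.896), and it turned to 0.02 when ISRIB replicate 1 was left out. Fn1, fibronectin, was 13511, 11759, 13196, 18334 and 13247 CPM with saline and 11918, 12827, 13717 and 13450.0 CPM with ISRIB (log2 -0.11 ± 0.14, adjusted p = 0.789), with 1 saline library, replicate 4, above the rest. Arg1, of arginine metabolism, was 129, 167, 65.9, 646 and 75.4 CPM with saline and 20.6, 51.02, 171 and 83.4 CPM with ISRIB, so its log2 fold change of -1.42 ± 0.71 (adjusted p = 0.414) came with a wide spread inside saline, and without replicate 3 it was -2.08 ± 0.78 (adjusted p = 0.16). Trem2, a lipid receptor, was 386, 395, 307, 361 and 317 CPM with saline and 425, 476, 284 and 479 CPM with ISRIB (log2 0.24 ± 0.13, and 0.38 ± 0.12 without replicate 3, adjusted p = 0.0867). Of 34 genes in the Trem2 and profibrotic list 3 were higher and 1 lower at an unadjusted p under 0.05 (median 0.12), and Gpnmb and Cd36 rose without replicate 3. Over all genes tested 6.92% were higher and 5.51% lower at that threshold, and the list's counts with all 4 libraries lie near these shares. Without replicate 3, 1.38% of all genes rose. With the offsets for length and GC content, 8 of the 34 were higher and 1 lower, beside 7.32% and 4.16% of all genes. Without replicate 3 and with the offsets, 4 of the list rose and 0 fell. Of 24 matrix genes 3 were higher (median -0.15), and Ecm1, kept in 4 of the 8 further omissions, and Adam19 rose without replicate 3. Adam19, a membrane-bound metalloprotease, was 9.51, 13.6, 9.54, 13.4 and 10.7 CPM with saline and 39.7, 31.2, 12.6 and 20.5 CPM with ISRIB, and its rise of 1.43 ± 0.24 (adjusted p = 0.00578) was kept in all 8 further omissions. Plpp3, an enzyme that breaks down lysophosphatidic acid at the cell surface, was 8.53, 11.3, 17.1, 9.99 and 13.2 CPM with saline and 31.3, 41.4, 9.83 and 20.9 CPM with ISRIB, rose by 1.37 ± 0.21 without replicate 3 (adjusted p = 0.00293) and also kept its call.

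Further lists were given by their counts. Over all genes tested, 6.92% were higher and 5.51% lower at an unadjusted p under 0.05. Of 29 type I interferon-stimulated genes 6 had an unadjusted p under 0.05 with all 4, all lower, with a median of -0.47, and none was called without replicate 3. With the offsets for length and GC content, 1 of the 29 was lower, beside 4.16% of all genes, and the median was -0.38. Isg15, a ubiquitin-like protein, was 6.39, 12.6, 7.77, 4.85 and 4.12 CPM with saline and 0.669, 4.06, 6.81 and 0.469 CPM with ISRIB, with replicates 1 and 4 at the bottom (log2 -1.26 ± 0.56, and -2.01 ± 0.60 without replicate 3, adjusted p = 0.0682). Bst2, which tethers budding viruses, was 56.9, 91.8, 75.7, 89.7 and 72.6 CPM with saline and 46.6, 52.1, 55.8 and 63.9 CPM with ISRIB. Of 28 glycolysis and hypoxia genes 1 was higher and 6 lower (median -0.15), and Pfkp, Pgk1 and Eno1 fell without replicate 3. Pgk1 lost its call in each of the 8 further omissions, Pfkp kept it in 1 and Eno1 in 3, and with the offsets Pfkp alone was called (Pgk1 adjusted p = 0.0976, Eno1 0.121). Eno1, enolase, was 409, 398, 385, 393 and 389.8 CPM with saline and 257, 261, 382 and 317 CPM with ISRIB. Of 19 genes of alternative activation 1 was higher and 5 lower (median -0.36), and Pdcd1lg2 and Cbr2 fell without replicate 3, each with a call kept in 2 of the 8 further omissions, and that on Cbr2 lost with the offsets (adjusted p = 0.076). The complement gene C4b was 73.8, 81.1, 65.1, 124 and 90.4 CPM with saline and 21.6, 22.96, 69.1 and 39.7 CPM with ISRIB and fell by 1.65 on the log2 scale without replicate 3 (adjusted p = 0.0222), a call lost when ISRIB replicate 1 or 2 was left out as well. Npas2, of the circadian clock, was 3.93, 1.80, 3.53, 3.14 and 4.42 CPM with saline and 12.04, 6.84, 5.75 and 7.81 CPM with ISRIB, without overlap, and rose by 1.39 ± 0.35 in log2 without replicate 3 (adjusted p = 0.0345), a call kept in 2 of the 8 further omissions.

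The ISRIB effect in young mice was set against that in old mice, which share no library with it. In old mice 0 of 12171 genes were called (0%, edgeR) and 1112 had an unadjusted p under 0.05 (9.14%). The test of the difference between the 2 effects, old minus young, found 0 genes past the threshold (0%), 621 with an unadjusted p under 0.05 (5.1%) and a smallest adjusted p of 0.717. Without young ISRIB replicate 3 it called 1, the chemerin receptor Ccrl2, named after its values were seen (log2 -1.80, adjusted p = 0.0394). A p that misses the threshold does not show that the effects were alike. In old mice H2-Eb1 was 1053 ± 285 CPM (mean ± SD, n = 5) without ISRIB and 561 ± 97.3 CPM (n = 5) with it. Its log2 fold change was -0.91 ± 0.18 in old mice (adjusted p = 0.139) beside -0.80 ± 0.19 in young, and the difference was -0.11 ± 0.26 (adjusted p = 0.995). Top2a had log2 -0.79 ± 0.28 in old and -0.95 ± 0.30 in young mice, and Cd36 had 0.96 ± 0.20 in old (adjusted p = 0.144) and 0.57 ± 0.21 in young. The medians of the lists were -0.58 in old and -0.60 in young mice for MHC class II, -0.65 and -0.68 for mitosis, -0.34 and -0.53 for DNA replication, and -0.60 and -0.47 for type I interferon-stimulated genes. Those of immediate early genes were -0.22 in old and 0.17 in young mice. Other lists also had medians of opposite sign, among them the circadian clock (-0.13 in old and 0.22 in young). Efferocytosis and scavenger receptors had -0.16 in old and 0.10 in young, and the Trem2 and profibrotic list -0.10 and 0.12. Cytosolic ribosomal protein genes had 0.04 in old and -0.11 in young. Among the 303 genes called without replicate 3 and tested in all libraries, 267 (88.1%) had the same sign in old mice, where 61.3% of all genes tested did. Of the 303, 78 had an unadjusted p under 0.05 in old mice with the same sign and 3 with the opposite sign. Genes called higher had a median log2 fold change of 0.16 in old mice, beside 0.54 in young mice without replicate 3. For those called lower it was -0.34 beside -0.94. The young values are those by which the genes were called. The Pearson correlation of the young and old effects in the fit of all 19 libraries was 0.20.

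The genes furthest apart between the ages were named by the smallest unadjusted p and did not pass the test. Tnfaip3, the NF-κB inhibitor A20, had log2 0.61 ± 0.21 in young and -0.75 ± 0.19 in old mice, a difference of -1.36 ± 0.28 (adjusted p = 0.717). Without replicate 3 the young value was 0.74 ± 0.21 (adjusted p = 0.0594). In young mice it was 70.99, 79.2, 72.3, 62.2 and 67.6 CPM with saline and 77.03, 164, 77.9 and 112 CPM with ISRIB, with replicate 2 the highest. Sik1, a salt-inducible kinase, had 0.73 ± 0.22 in young, 0.74 ± 0.24 in young without replicate 3 and -0.59 ± 0.21 in old mice. Marco, a scavenger receptor of mature alveolar macrophages, had -0.90 ± 0.51 in young, -1.54 ± 0.54 in young without replicate 3 and 1.48 ± 0.41 in old mice, and was 14.3, 6.42, 8.24, 35.5 and 11.3 CPM with young saline, where replicate 4 was far above the others, and 1.34, 6.26, 17.2 and 8.59 CPM with young ISRIB. Atp7a (0.49 in young and -0.16 in old) and Sh3pxd2b (0.27 and -0.22) had values above 0 in young mice, in log2, and Tmem147 (-0.49 and 0.19), Jpt2 (-0.38 and 0.22) and Ift80 (-1.13 and 0.44) had values under 0 there.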

How the data were processed

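The deposited table holds raw read counts per Ensembl gene for 39 libraries, 1 column per library per the file headers; the values are whole numbers whose totals differ between libraries. Per the submitters' processing notes, bcl2fastq 2.19.1, FastQC, Trimmomatic 0.36, STAR 2.6.0 and HTSeq 0.11.2 were used with mm10; the strand setting is not given in the sources used here, so reads of a gene and an overlapping antisense gene cannot be told apart. Of 43430 gene IDs, 42462 had a symbol in GENCODE vM21, which gave the coordinates. The 19 macrophage libraries were fitted together with edgeR 4.0.16 in R 4.3.3 (quasi-likelihood test, TMM, filterByExpr with a minimum count of 10 and a minimum total of 15, Benjamini-Hochberg over all genes tested, call at an adjusted p under 0.05), each group with its own mean, with and without young ISRIB replicate 3. DESeq2 1.42.0, limma 3.58.1, other scalings, filters, subsets and offsets were alternatives. On simulated counts the test recovered 85 of 100 genes changed by 1 in log2 and 100 of 100 changed by 2, with 9 false calls, for the comparison in young mice over 11955 genes. Libraries of a group were not duplicates, with a chi-square per degree of freedom of 7.26 to 24.4 within the young groups.

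Genes named are the 12 per direction with the smallest p among genes of at least 5 CPM whose groups did not overlap, the 8 per direction with the largest called change without replicate 3 under the same conditions, fixed core genes and up to 6 members of smallest p of each list, and the 4 per direction with the smallest p between ages; 1 gene these rules name is not reported here, and others are said to be chosen after their values were seen. The libraries compared, the lists and the rules were chosen with earlier results of these data known. Lists are described by counts and medians, with no test.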

Additional observations from a re-analysis of the deposited data

Results flagged for a closer look

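In 20 of 209 groups checked (9.57%) the highest or lowest library stood far from the rest. Chance gives about 1 in 20 when groups are independent, which these were not. Nearly all were the saline or ISRIB values of genes named above, some of them named for their change without replicate 3. The share flagged therefore cannot be set against that rate. The gap to the nearest library, as a share of the range of the group, is given for each flagged group. ISRIB replicate 3 was the outlying library in 11 of the 20. Its count follows in part from the choice of genes, and the share of the shift had already singled it out. It was the highest ISRIB library for Mcm5 (0.927), Cdk1 (0.927), Ect2 (0.903), Neil3 (0.884), E2f8 (0.876), Ercc6l (0.865), Psat1 (0.859), Mcm2 (0.851) and Pclaf (0.848), the lowest for Pip4k2a (0.896), and the lowest in the share of the shift shown by the other 3 libraries (0.872). ISRIB replicate 2 was the highest of its group for Irf1 (0.895), at 40.8 CPM.

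Saline replicate 4 was the highest saline library for Arg1 (0.826), Fn1 (0.734) and Marco (0.731) and the lowest for Cd74 (0.740). Saline replicate 2 was the highest for Ift80 (0.867) and Ndufs6 (0.744), saline replicate 1 the highest for Cdkn3 (0.886), and saline replicate 5 the lowest for Ndufb6 (0.773).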

How the results depend on the processing

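With all 4 ISRIB libraries the count of called genes was 0, and it was 105 with DESeq2, 14 with quality-weighted voom, 224 with no filter on low counts and 1 (Tsc22d3) with only the 9 young libraries; with a replicate block it was 35 over the 9 young libraries and 22 over all 19. It was 0 to 304 when 1 library was left out, 304 without ISRIB replicate 3 and 1 (Fkbp5) without ISRIB replicate 2. Without replicate 3 the count was 304, and it was 592 with DESeq2, 695 with no filter, 682 with only the 8 young libraries and 756 with a replicate block, and 18 to 322 when 1 more library was left out. The difference between ages, at 0 calls, had 33 with no filter, 1 (Tnfaip3) with a replicate block and 0 to 1 when 1 library was left out. The cause of these changes was not tested. Same-numbered young libraries deviated from their group means with correlations of -0.010 to 0.018, and differently numbered ones with -0.066 to 0.059. In old mice these ranges were -0.083 to 0.165 and -0.224 to 0.180. So few values cannot decide whether the replicate numbers pair the libraries.

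List medians kept within their spread in 562 of 574 recomputations. With length and GC offsets, and with length offsets alone, the aminoacyl-tRNA synthetase median was 0.0283 and 0.0236, that of the proteasome -0.0653 and -0.0605, and that of all genes 0.0178 in both; mitochondrially encoded transcripts were at 0.2039 with length offsets. Leaving out 1 library gave -0.1047 to -0.0227 for eIF2B and eIF2, -1.269 to -0.5116 for mitosis, -0.0212 to 0.1459 for LXR and cholesterol efflux and 0.0074 to 0.1878 for Toll-like receptors. Spp1 ran from -0.2074 to 0.0158, turning sign without ISRIB replicate 1, and Fn1 from -0.1673 to 0.0054, turning without saline replicate 4. Of the 78 named genes called without replicate 3, 8 kept the call in all 8 further omissions.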

Other observations

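Several genes outside the lists described above changed without replicate 3 or separated the libraries in another order. Fkbp5, a co-chaperone of the glucocorticoid receptor whose transcription glucocorticoids raise, was named after its values were seen: it was 81.98, 74.1, 61.6, 109 and 67.8 CPM with saline and 118, 59.4, 232 and 208 CPM with ISRIB, with replicates 3 and 4 far above the rest and replicate 2 the lowest of all 9. Its log2 fold change was 0.97 ± 0.24 with all 4 libraries (adjusted p = 0.117, edgeR). Without replicate 3 it was 0.70 ± 0.23 (adjusted p = 0.103), and without ISRIB replicate 2 it was 1.24 (adjusted p = 0.00402). Leaving out replicate 2, the lowest library for this gene, widens the difference by construction. Replicate 3 stood with replicate 4 in Fkbp5, and above saline in Tsc22d3. No set of glucocorticoid-induced genes was examined.

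Ccl6, a chemokine of alveolar macrophages, was 2906, 2659, 2759, 2809 and 2763 CPM with saline and 4428, 3876, 2858 and 3553 CPM with ISRIB and rose by 0.51 ± 0.14 in log2 without replicate 3 (adjusted p = 0.049), a call lost in each of the 8 further omissions. Csf1, the growth factor that macrophages depend on, was 12.95, 19.5, 11.7, 9.57 and 12.8 CPM with saline and 38.04, 27.1, 9.53 and 19.2 CPM with ISRIB and rose by 1.09 ± 0.30 (adjusted p = 0.049), a call kept in 1 of the 8. Gstm1, a glutathione transferase, was 84.6, 75.2, 84.1, 55.4 and 72 CPM with saline and 169, 156, 56.3 and 101 CPM with ISRIB and rose by 0.94 ± 0.22 (adjusted p = 0.0291), kept in 3 of the 8. Each was the only gene of its list called without replicate 3. With all 4 libraries, 3 of 12 myeloid CC chemokines had a log2 fold change above 0 and 9 under it (median -0.13). Of 19 growth factors 5 were above 0 and 14 under it (median -0.17). Of 19 genes of the NRF2 antioxidant response 8 were above 0 and 11 under it (median -0.09). Scaled to the library total alone, the summed fibroblast and smooth muscle markers were 375.4 to 427.8 CPM with saline and 270.9 to 361 CPM with ISRIB. Of that list Gsn, an actin-severing protein also made by macrophages, averaged 334.6 CPM and Lum was at 0. Summed endothelial markers were 509.2 to 546 CPM with saline and 346.5 to 623.4 CPM with ISRIB, with Car4, which alveolar macrophages also express, at a mean of 271.9 CPM and Emcn at 0. Summed neutrophil markers were 82.6 to 125.1 CPM with saline and 102.4 to 135.3 CPM with ISRIB, with Ly6g at 0.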
